A study of Rattus norvegicus with 24 samples.

Results

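The interferon response genes examined here were 33 rat genes, taken by symbol from a list with no measured value in the rule, and they were followed over myocardial RNA of all 24 rats of the series. Every probe whose transcript accession maps to one of the 33 symbols in rat RefSeq was taken, which gave 36 probes for 32 genes out of 15168 genes named on the array. No probe was named for Xaf1, so it has no value here. All 32 genes passed the filter on dim probes, among 12894 genes tested, and 27 of them were well above background on all 24 arrays.

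The series placed 4 rats in each of 6 groups, with 2 males and 2 females per group. The design text names neither ligation nor acupuncture for the sham group. In the IRI group myocardial ischaemia-reperfusion injury was modelled by ligating a coronary artery, the left anterior descending branch. The Jiaji, Neiguan, Yanglingquan and Quchi groups were ligated in the same way, after needling for 7 days at the acupoint that names each group, on the back beside the spine, the forearm, the leg and the elbow. All 5 injured groups share the ligation, and a group given acupuncture without ligation was not analysed here. The sources used here do not give strain, age, time of reperfusion or time of tissue collection.

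Interferons are secreted proteins that cells release on sensing viral or displaced nucleic acid. Type I interferons act through a receptor that includes Ifnar1, and a complex that holds Stat2 and Irf9 then binds the interferon-stimulated response element (ISRE) of antiviral genes. Interferon gamma, made mainly by T and NK cells, acts through a receptor that includes Ifngr1, and gamma-activated sites (GAS) lie in genes such as Irf1, the guanylate-binding proteins, Cxcl9 and the immunoproteasome. In injured heart muscle, type I interferon signalling is known from infiltrating macrophages that take up DNA of dying cells.

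The RefSeq promoter table (build GRCr8) held the window from 250 bases before to 50 bases after the annotated start for 28 of the 33 genes. It was searched on both strands for the ISRE letters GAAANNGAAA, read as TTTCNNTTTC on the other strand, and for the GAS letters TTCNNNGAA, which read the same on both. The ISRE letters were present in 16 of the 28 windows (57.1%) against 3.92% of 33469 promoters in the table, and the GAS letters in 9 (32.1%) against 8.87%. In Bst2 an ISRE and a GAS match overlapped. Either motif was found in 21 windows, against 12.3% of all promoters. Among the antiviral effectors 8 of 10 windows held the ISRE letters, and among the transcription factors 3 of 5 held the GAS letters. None of the 3 windows of Ifng, Ifngr1 and Ifnar1 held either motif. The windows below belong to B2m and Irf1, which passed a test among the groups, and to Cxcl9 and Cxcl10, the next by p over the 6 groups with a match. Capitals mark the matched letters, an ISRE in B2m and Cxcl10 and a GAS in Irf1 and Cxcl9. All are on the + strand of GRCr8, at chr3:129549080-129549379, chr10:38417685-38417984, chr14:16006916-16007215 and chr14:15988816-15989115.
B2m: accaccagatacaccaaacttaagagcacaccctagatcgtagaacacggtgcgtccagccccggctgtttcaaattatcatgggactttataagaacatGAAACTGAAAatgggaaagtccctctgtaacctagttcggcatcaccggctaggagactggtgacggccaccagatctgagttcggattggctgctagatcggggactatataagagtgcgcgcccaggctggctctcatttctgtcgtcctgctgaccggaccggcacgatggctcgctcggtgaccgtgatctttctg
Irf1: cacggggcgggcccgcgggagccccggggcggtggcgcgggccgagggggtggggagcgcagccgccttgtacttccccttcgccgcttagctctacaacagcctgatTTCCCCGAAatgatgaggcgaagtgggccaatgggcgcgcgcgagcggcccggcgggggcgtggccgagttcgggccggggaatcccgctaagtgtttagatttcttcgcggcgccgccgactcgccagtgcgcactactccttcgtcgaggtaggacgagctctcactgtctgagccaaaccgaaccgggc
Cxcl9: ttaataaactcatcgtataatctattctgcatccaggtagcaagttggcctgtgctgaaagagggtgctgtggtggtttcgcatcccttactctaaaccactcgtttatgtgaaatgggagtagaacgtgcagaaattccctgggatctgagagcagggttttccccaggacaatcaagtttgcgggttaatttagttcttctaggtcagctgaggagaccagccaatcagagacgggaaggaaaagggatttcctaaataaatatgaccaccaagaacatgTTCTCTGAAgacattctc
Cxcl10: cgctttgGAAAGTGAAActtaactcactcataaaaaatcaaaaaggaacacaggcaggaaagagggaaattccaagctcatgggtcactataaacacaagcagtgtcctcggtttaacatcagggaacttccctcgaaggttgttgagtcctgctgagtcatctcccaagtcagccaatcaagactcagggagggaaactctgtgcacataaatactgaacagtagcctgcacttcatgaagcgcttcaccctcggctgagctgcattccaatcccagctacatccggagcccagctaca

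**Figure D1:**
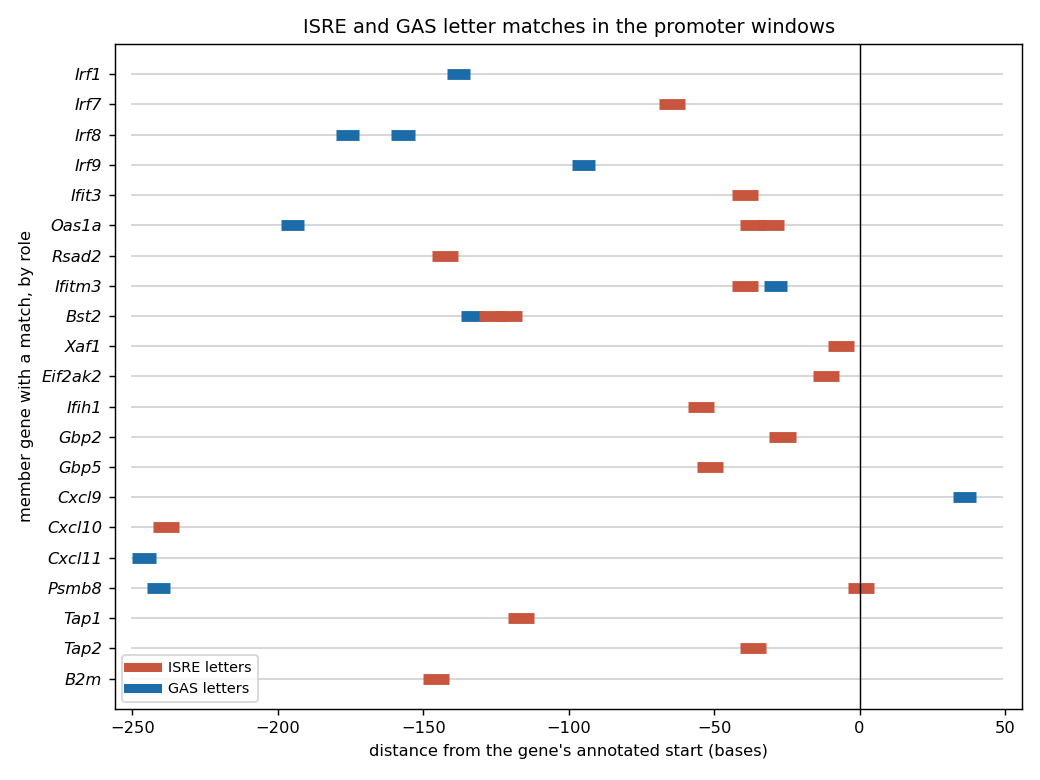
Position of ISRE letters (red) and GAS letters (blue) in the promoter windows of the 21 interferon response genes with a match; the horizontal axis is the distance in bases from the annotated start, and the grey line is the window searched. In B2m the ISRE letters lie at -150 to -141, and the GAS letters of Cxcl9 lie after it.

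Counted from the annotated start, the B2m match lay at -150 to -141, the Irf1 match at -142 to -134, the Cxcl10 match at -243 to -234 and the Cxcl9 match at 32 to 40. A match of letters describes the window and is not evidence of a bound site.

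Across the series, the share of probes well above background averaged 73.3 ± 2.57% (SD, n = 4) in Yanglingquan and 80.0% to 84.7% in the other groups. By their scan headers the arrays fell into 7 slides or scans. None held arrays of more than 1 group, and Quchi alone was spread over 2 of them, so slide and group cannot be told apart. Sham and IRI were scanned on 1 day, Jiaji, Neiguan, Yanglingquan and Quchi 2 to 4 on another and Quchi 1 on yet another. No acupoint array shared a scan day with sham or IRI, so acupuncture and scan day cannot be told apart. The array at slide position 1 came from a male in every group. All 10 cardiomyocyte markers were well above background on every array, with a summed level of 1036 to 2123, as the tissue label states. Eif2s3, an X-linked gene expressed from both copies, lay at 2.78 to 3.23 in the 12 females and 2.07 to 2.43 in the 12 males, so every array matched its labelled sex. All levels here are log2 of the array signal minus the array's 75th percentile, so 0 is that percentile and 1 unit is a doubling; levels are compared between samples and not between genes.

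Of the 32 genes tested, 0 passed between IRI and sham, B2m alone was higher after Jiaji, Neiguan and Yanglingquan than in IRI, and 0 passed after Quchi. A gene is referred to as called when its adjusted p in limma, with Benjamini-Hochberg adjustment over all 12894 genes, was under 0.05. For IRI against sham 5.76% of all genes were called and 0 of 32 interferon response genes, also 0 at an unadjusted p under 0.05 in limma, where 17.8% of all genes passed. The 32 differences had a median of -0.27 against -0.03 for all genes. Of the 32, 27 lay below 0, as did 7214 of all 12894 genes. The 32 genes correlate over the arrays, so these differences are not independent. The lowest were Ifit1 at -0.87 ± 1.05 (SE), Irf7 at -0.75 ± 0.52 and the immunoproteasome subunit gene Psmb8 at -0.66 ± 0.39. Ifngr1 had the highest, 0.33 ± 0.18 (limma adjusted p = 0.359).

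Set against IRI, 1 of 32 genes was called in Jiaji (10.2% of all genes), 1 in Neiguan (5.62%), 1 in Yanglingquan (12.1%) and 0 in Quchi (3.44%). At an unadjusted p under 0.05 in limma, 2 of the 32 passed for Quchi, where 19.0% of all genes did. The called gene was B2m each time. The median difference of the 32 genes was 0.17 for Jiaji, 0.41 for Neiguan, 0.13 for Yanglingquan and 0.09 for Quchi, where the medians of all genes were -0.02, -0.05, -0.04 and 0.02. These comparisons share the 4 IRI hearts. In bulk tissue, fewer cells of a type and less RNA per cell cannot be told apart. With the median of each array in place of its 75th percentile, the Jiaji median became -0.04 and that of all genes -0.23.

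Neiguan had the most of the 32 genes above IRI, 26, where 5465 of all 12894 genes were. At an unadjusted p under 0.05, 6 of the 32 were higher in Neiguan than in IRI, where 9.97% of all genes were. They were Cxcl10, Gbp2, Gbp5, Irf7, Irf1 and B2m, and of these B2m alone was called. The count of 6 fell to 1 without IRI 4 and was 12 without IRI 1, both males of the control group, and it was 3 without Neiguan 1 or Neiguan 3. Arrays of the 2 groups overlapped for Cxcl10, Gbp2, Gbp5, Irf7 and Irf1. Of the 14 monocyte and macrophage markers, 10 also lay above IRI in Neiguan, with a median difference of 0.39, and 5 of them were higher at an unadjusted p under 0.05. Their summed level ran from 67.0 to 98.5 in Neiguan and from 41.7 to 91.0 in IRI, and their part in the result was not tested. The 14 T and NK cell markers had a median difference of -0.15.

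Against sham, 0 of 32 genes were called in Jiaji (24% of all genes), with 1 at an unadjusted p under 0.05 in limma (37.4% of all genes), 1 in Neiguan (19.9%), 1 in Yanglingquan (13.0%) and 2 in Quchi (21.1%). B2m was the gene called in Neiguan and Yanglingquan, and Ifit1 and Ifnar1 were lower in Quchi. The limma F test over Jiaji, Neiguan, Yanglingquan and Quchi called 2 of the 32 genes, Irf1 and Ifnar1, where it called 39.1% of all genes.

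**Figure D2:**
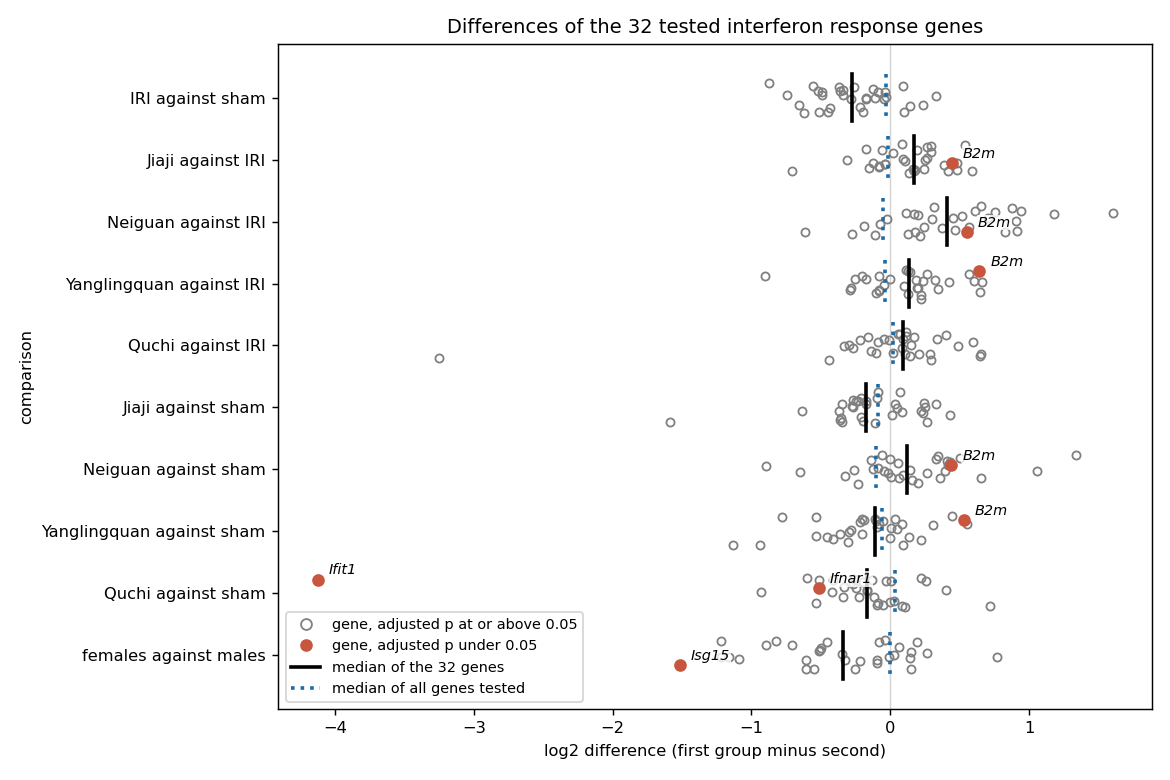
Log2 difference of each of the 32 tested interferon response genes (horizontal axis) in 10 comparisons; filled points passed an adjusted p of 0.05, black bars are the medians of the 32 genes and dotted bars those of all 12894 genes. B2m is the filled point in 5 comparisons, Ifit1 and Ifnar1 in Quchi against sham and Isg15 in females against males.

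B2m, of the antigen presentation group, had the smallest p over the 6 groups (limma F test, adjusted p = 0.00466), though not the largest difference. It encodes beta-2-microglobulin, the light chain that MHC class I needs to reach the cell surface. It lay at 6.58, 6.20, 6.23 and 6.29 in sham 1 to 4 and at 6.38, 6.23, 6.25 and 5.99 in IRI 1 to 4. After acupuncture it lay at 6.60, 6.80, 6.48 and 6.75 in Jiaji and at 6.49, 6.79, 7.02 and 6.76 in Neiguan. In Yanglingquan it lay at 7.14, 7.02, 6.47 and 6.79, and in Quchi at 6.57, 6.55, 6.63 and 6.45. Every array of the 4 acupoint groups lay above every IRI array, and sham 1 lay among the acupoint arrays. The acupoint and IRI arrays were also scanned on different days, which cannot be told apart from acupuncture. The difference from IRI was 0.44 ± 0.14 for Jiaji, 0.55 ± 0.14 for Neiguan, 0.64 ± 0.14 for Yanglingquan and 0.33 ± 0.14 for Quchi (limma adjusted p = 0.0452, 0.0194, 0.00486 and 0.192). From sham it was 0.44 ± 0.14 for Neiguan and 0.53 ± 0.14 for Yanglingquan (limma adjusted p = 0.0296 and 0.0166), and 0.33 ± 0.14 for Jiaji (0.087).

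The size of the B2m difference depended on how the arrays were scaled. Under quantile normalization it was 0.26, 0.35 and 0.10 for Jiaji, Neiguan and Yanglingquan against IRI (limma adjusted p = 0.249, 0.135 and 0.732), and 0.05 for Yanglingquan against sham, which became -0.03 after normexp background correction. Neiguan against sham was 0.30 under quantile normalization, median scaling and the authors' deposited values and 0.26 under normexp (limma adjusted p = 0.112, 0.161, 0.112 and 0.176), so that call was lost under each of the 4. Yanglingquan had the lowest share of probes above background. Summed cardiomyocyte markers, all 10 detected on every array, ran from 1036 to 1171 in IRI, 1218 to 1483 in Jiaji, 1222 to 1536 in Neiguan, 1433 to 2123 in Yanglingquan and 1096 to 1705 in Quchi; their part in the result was not tested. The Jiaji call was lost without any 1 of its 8 arrays, with a difference of 0.35 without IRI 4 (limma adjusted p = 0.153) the lowest. The Neiguan call against IRI was lost without IRI 4 (0.46, adjusted p = 0.0744), Neiguan 2 (0.53, 0.0508), Neiguan 3 (0.48, 0.0795) or Neiguan 4 (0.54, 0.06). Against sham, the Neiguan call was lost without sham 2, 3 or 4 or Neiguan 2, 3 or 4 (differences of 0.37 to 0.45), and the Yanglingquan call without sham 2, Yanglingquan 1 or Yanglingquan 2 (0.47, 0.44 and 0.49).

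The other members of the antigen presentation group were Psmb8 and Psmb9, catalytic subunits of the immunoproteasome, and Tap1 and Tap2, the peptide transporter of the endoplasmic reticulum. None of these 4 was called in any comparison, and their group means spanned 0.26 to 0.91 for Psmb8, 2.64 to 3.09 for Psmb9 and -1.28 to -0.54 for Tap1. Tap2 was lowest in Jiaji, at a mean of -0.22. Psmb9 lay at 3.86, 2.52, 3.17 and 1.32 in IRI 1 to 4, the widest spread of any group, and at 2.79, 3.09, 2.95 and 3.16 in sham.

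**Figure D3:**
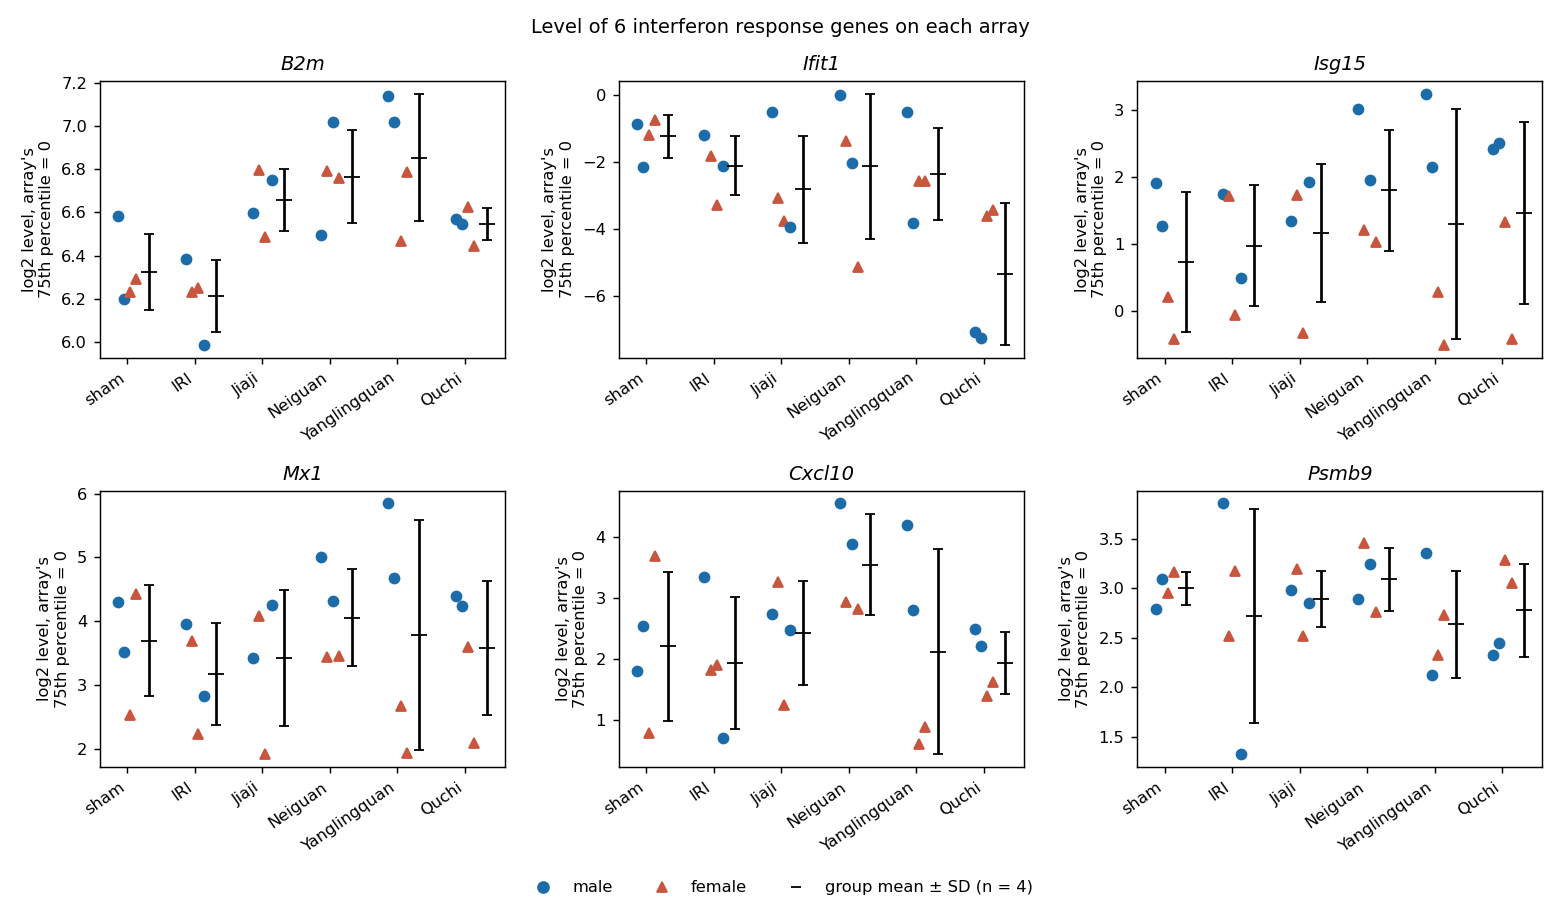
Log2 level of 6 interferon response genes on each array, by group (horizontal axis); circles are males, triangles females, and bars the group mean ± SD (n = 4). The B2m arrays of the 4 acupoint groups, 6.45 to 7.14, lie above the IRI arrays, 5.99 to 6.38, and Quchi 1 and 2 lie at -7.10 and -7.28 for Ifit1.

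Among the 14 antiviral effectors, Ifit1 was the 1 called in a comparison of groups. Ifit1 binds viral RNA with an unmodified cap. It lay at -0.85, -2.14, -1.20 and -0.74 in sham 1 to 4, at -1.20, -1.81, -3.30 and -2.11 in IRI and at -0.49, -3.09, -3.76 and -3.93 in Jiaji. In Neiguan it lay at 0.02, -1.36, -2.04 and -5.13, in Yanglingquan at -0.49, -3.81, -2.57 and -2.58 and in Quchi at -7.10, -7.28, -3.61 and -3.42. Quchi 1 and 2, both males, were not well above background, so 2 of the 4 Quchi arrays measured the gene, and all 4 lay below every sham and IRI array. These 2 dim arrays were scanned on different days. The measured Quchi arrays, Quchi 3 and 4, compare with a sham mean of -1.23. The fit over all 4 arrays put Quchi lower than sham, at a log2 difference of -4.12 ± 1.05 (limma adjusted p = 0.00879), and at -3.25 ± 1.05 from IRI (adjusted p = 0.0917). The size of both rests in part on the 2 arrays near background. The call against sham held in all 20 other settings that gave a value, with differences from -4.82 to -2.37.

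Isg15 encodes a ubiquitin-like protein that is joined to viral and host proteins. It lay at 1.91, 1.27, 0.21 and -0.42 in sham 1 to 4, at 1.75, 1.72, -0.06 and 0.50 in IRI and at 1.34, 1.74, -0.32 and 1.93 in Jiaji. In Neiguan it lay at 3.02, 1.21, 1.95 and 1.03, in Yanglingquan at 3.24, 2.16, 0.29 and -0.50 and in Quchi at 2.42, 2.51, 1.33 and -0.41. All groups overlapped, and every group had its highest value in a male and its lowest in a female.

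For the other 12 tested effectors none was called between groups. Their group means lay closest together for Ifit2, from 1.5 to 1.64, and farthest apart for Rsad2, from 1.71 to 2.74. Mx1 and Mx2 are GTPases that trap viral particles, Oas1a and Oasl belong to the oligoadenylate synthetase family, and Rsad2 makes a chain-terminating nucleotide. Mx1 group means ran from 3.18 in IRI to 4.06 in Neiguan. Within Yanglingquan alone its arrays ran from 1.95 to 5.85. Ifih1 senses long double-stranded RNA, Eif2ak2 blocks translation on sensing it, Usp18 removes Isg15 and dampens the type I receptor, Ifitm3 hinders viral entry and Bst2 tethers budding virus. Oasl was not well above background on Yanglingquan 4 and Quchi 4. The Rsad2 spot of Yanglingquan 1 was marked as an outlier by the scanner software and left out, so that group rests on 3 arrays for it.

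Of the interferons and receptors, Ifng itself was dim. It was well above background on 12 of 24 arrays, 4 of 4 in sham, 3 in IRI, 2 in Quchi and 1 each in Jiaji, Neiguan and Yanglingquan. It lay at -6.39, -4.82, -5.26 and -5.59 in sham 1 to 4, at -5.18, -5.14, -5.23 and -6.64 in IRI and at -6.07, -6.00, -5.55 and -5.82 in Jiaji. In Neiguan it lay at -6.94, -5.65, -6.41 and -5.66, in Yanglingquan at -7.19, -6.66, -6.64 and -5.33 and in Quchi at -6.61, -6.38, -4.37 and -5.49. The groups overlapped, and Ifng was called in no comparison.

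Ifnar1, a chain of the type I interferon receptor, lay at -2.75, -2.22, -2.52 and -2.84 in sham 1 to 4, at -2.52, -2.89, -2.83 and -2.95 in IRI and at -2.14, -2.45, -2.87 and -2.73 in Jiaji. In Neiguan it lay at -3.01, -2.87, -3.0 and -2.76, in Yanglingquan at -2.83, -3.19, -2.75 and -2.77 and in Quchi at -3.15, -3.10, -3.12 and -3.02. All 4 Quchi arrays lay below the sham, IRI, Jiaji and Neiguan arrays. Quchi was lower than sham by a log2 difference of -0.52 ± 0.16 (limma adjusted p = 0.0237), and the F test over the acupoints gave an adjusted p of 0.0462. That F test lost its call in 21 of 29 other settings, and the Quchi call was lost without sham 2 (-0.39, adjusted p = 0.0982), sham 3 (-0.49, 0.0636) or Quchi 2 (-0.52, 0.06).

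Ifngr1, the ligand-binding chain of the interferon gamma receptor, lay at 1.62, 1.92, 1.47 and 1.60 in sham 1 to 4, at 2.30, 2.19, 1.81 and 1.62 in IRI and at 2.09, 1.97, 1.79 and 1.74 in Jiaji. In Neiguan it lay at 1.80, 1.83, 1.78 and 1.42, in Yanglingquan at 1.71, 1.86, 2.39 and 2.43 and in Quchi at 2.05, 2.14, 2.27 and 1.76. It was called in no comparison, and sham and Neiguan had the lowest group means, 1.65 and 1.71.

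The transcription factors carry the signal to the genes. Irf1, induced by interferon gamma, lay at 3.58, 4.06, 3.87 and 4.40 in sham 1 to 4, at 4.68, 3.85, 4.44 and 3.31 in IRI and at 3.81, 4.31, 3.89 and 3.55 in Jiaji. Its level in Neiguan was 4.44, 4.61, 4.88 and 4.59, in Yanglingquan 2 to 4 it was 4.06, 3.72 and 3.96, with the spot of Yanglingquan 1 left out as an outlier, and in Quchi 3.37, 3.25, 3.87 and 4.43. The 4 Neiguan arrays lay above all sham, Jiaji, Yanglingquan and Quchi arrays. The F test over the acupoints gave a limma adjusted p of 0.0326, lost in 10 of 29 other settings, among them those without any 1 of the 4 Neiguan arrays (0.05 to 0.128), without Quchi 1 (0.0556) and without Quchi 2 (0.0609). Neiguan lay 0.65 ± 0.26 above sham and 0.56 ± 0.26 above IRI (limma adjusted p = 0.081 and 0.233). The other Irf1 probe gave 0.45 in both comparisons, and for Jiaji against IRI the probes disagreed in sign, at -0.18 and 0.22.

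Irf7 amplifies type I interferon production. It lay at 5.23, 3.96, 3.33 and 4.70 in sham 1 to 4, at 4.61, 3.83, 2.47 and 3.34 in IRI and at 4.43, 4.62, 1.95 and 5.17 in Jiaji. Its level in Neiguan was 5.20, 4.48, 5.19 and 4.10, in Yanglingquan 5.63, 4.86, 3.81 and 2.53 and in Quchi 4.91, 4.94, 4.15 and 2.85. Neiguan lay 1.18 ± 0.52 above IRI (limma adjusted p = 0.213), with overlapping arrays.

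Stat2, a signal transducer of the type I receptor, lay at 2.54, 2.41, 1.71 and 2.99 in sham 1 to 4, at 2.76, 1.95, 1.95 and 1.49 in IRI and at 2.11, 2.51, 1.28 and 2.34 in Jiaji. Its level in Neiguan was 3.36, 2.50, 2.93 and 2.15, in Yanglingquan 3.59, 2.89, 1.60 and 1.74 and in Quchi 2.48, 2.46, 2.13 and 1.54. The groups overlapped. Irf8, a factor of myeloid cells, and Irf9, the DNA-binding partner of Stat2, were called in no comparison, with group means of -3.79 to -3.25 and -0.78 to -0.43.

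Cxcl9, Cxcl10 and Cxcl11 attract activated T cells through the receptor Cxcr3. Cxcl10 lay at 1.80, 2.53, 0.80 and 3.69 in sham 1 to 4, at 3.34, 1.83, 1.90 and 0.71 in IRI and at 2.73, 3.26, 1.24 and 2.47 in Jiaji. Its level in Neiguan was 4.55, 2.93, 3.88 and 2.82, in Yanglingquan 4.18, 2.80, 0.61 and 0.90 and in Quchi 2.49, 2.22, 1.40 and 1.63. The Neiguan arrays lay above all Quchi arrays and overlapped the others. Neiguan lay 1.60 ± 0.64 above IRI (limma adjusted p = 0.166).

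Cxcl9 lay at 1.57, 2.33, 1.30 and 2.64 in sham 1 to 4, at 2.87, 1.42, 1.97 and -0.36 in IRI and at 2.53, 2.20, 1.31 and 1.99 in Jiaji. Its level in Neiguan was 2.10, 2.96, 2.64 and 1.83, in Yanglingquan 2.48, 0.81, 0.55 and 0.89 and in Quchi 0.86, 0.76, 1.28 and 1.23. All Quchi arrays lay below all Neiguan and Jiaji arrays, yet the F test over the acupoints gave a limma adjusted p of 0.097. Cxcl11 group means ran from -0.66 to -0.24. Gbp2 and Gbp5, guanylate-binding proteins that attack vacuoles of intracellular microbes, had Neiguan differences from IRI of 0.94 ± 0.39 and 0.91 ± 0.40 (limma adjusted p = 0.181 and 0.213); the other Gbp5 probe gave 0.40, and against sham the Gbp5 probes disagreed in sign at 0.41 and -0.30.

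**Figure D4:**
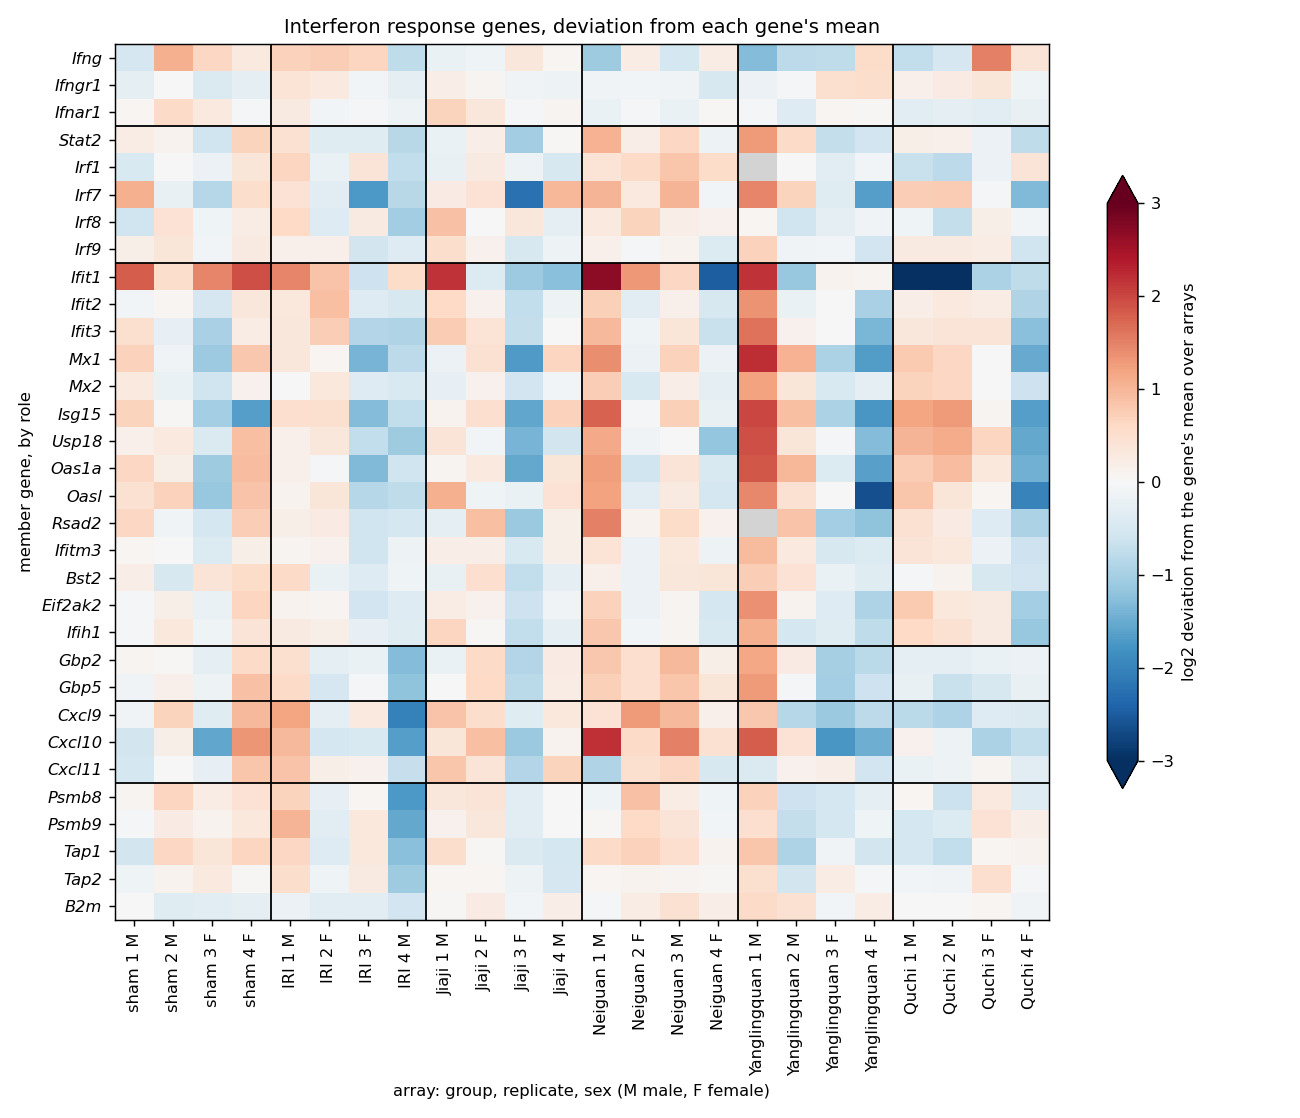
Deviation of each tested interferon response gene (rows, by role) from its mean over the arrays (columns, by group with replicate and sex), in log2 units; grey cells are spots left out, and Ifit1 in Quchi 1 and 2 lies beyond the colour scale. Yanglingquan 1 is high and IRI 4 low in many rows, and the antiviral rows fall together in Jiaji 3, Yanglingquan 4 and Quchi 4.

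Group accounted for less of the variance of the 32 genes than over all genes tested, and many of the genes moved together over the arrays. Group accounted for a median of 15.3% of the variance of the 32 genes and sex for 16.8%, with 64.2% left over. Group and sex were fitted as separate terms, so what is left also holds any sex difference that varies between groups. Over all 12894 genes the medians were 45.5%, 2.25% and 48.9%. These shares are not adjusted for degrees of freedom, 17 of which are residual, so a large residual share is in part set by the design. Sex accounted for more than group in 16 of the 32 genes and in 3.38% of all genes. The share of group cannot be told apart from that of slide and scan day. Slide position moved with sex, since position 1 was a male in every group, so the share of sex may hold position too. Yanglingquan 1 was the highest of all 24 arrays in 19 of the 32 genes, and IRI 4 was the lowest in 9, Yanglingquan 4 in 6, Quchi 4 in 6 and Jiaji 3 in 4. Within IRI, IRI 1 was the highest in 24 genes and IRI 4 the lowest in 21. How often these arrays were extreme over all genes was not counted. Yanglingquan 1 and 2 had the lowest share of probes well above background, 71.1%.

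With group and sex removed, correlations over the 24 arrays were higher among antiviral effectors and among antigen presentation genes than between these groups. A sex difference that varies between groups stays in these correlations, since group and sex were removed as separate terms. The 91 pairs of antiviral effectors had a median r of 0.764, and the 10 pairs of antigen presentation genes 0.819, whereas the 70 pairs between these groups had 0.358. Within the 10, B2m followed the rest of its group less closely, at 0.17 with Tap1, 0.31 with Tap2 and 0.54 with Psmb8 and with Psmb9. Its r with Mx1 was 0.51. The highest of the 91 was Mx1 with Oas1a, at r = 0.969 and rho = 0.970. The highest of the 10 was Psmb9 with Psmb8, at r = 0.906 and rho = 0.852. Mx1 and Psmb9, a pair across the groups, gave r = 0.325 and rho = 0.261. These 3 pairs were chosen after their values were seen and are described without a test. Without the 2 arrays farthest from the median the r values were 0.960, 0.810 and 0.210. Within the 8 arrays of the first scan day they were 0.987, 0.974 and 0.260, and within the 15 of the second 0.959, 0.908 and 0.454.

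**Figure D5:**
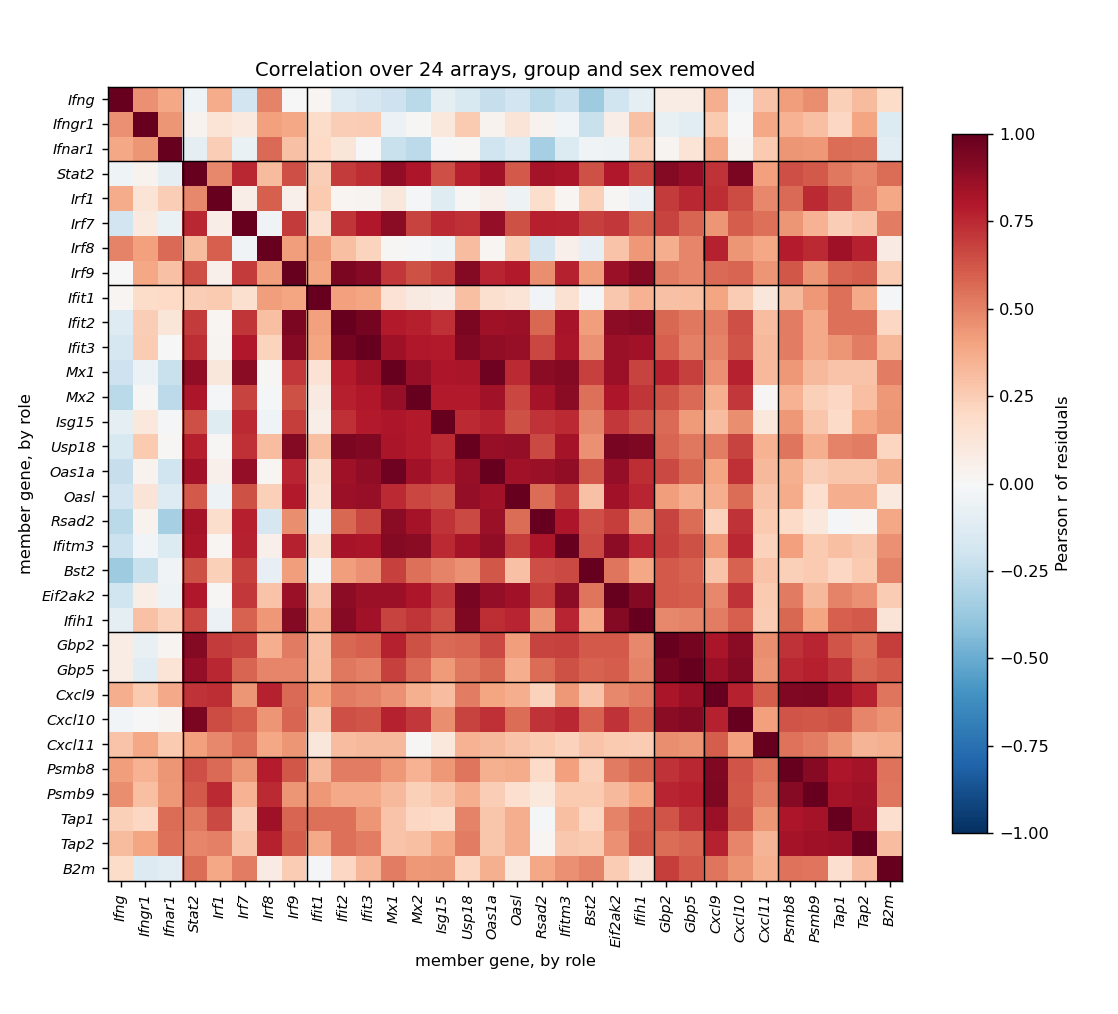
Pearson correlation of the interferon response genes over 24 arrays after group and sex were removed, genes by role on both axes; red is positive and blue negative. Antiviral effectors other than Ifit1, with Irf7, Irf9 and Stat2, form one red block and Irf8, Cxcl9, Psmb8, Psmb9, Tap1 and Tap2 another. The blocks are not separate, since Gbp2 has r = 0.766 with Mx1 and 0.759 with Psmb9, and Stat2 has 0.612 with Psmb9.

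Of 12893 other genes, 28 followed Mx1 at r above 0.8, of which 10 were members of the list and 11 were other interferon pathway genes. The closest were Ifi44 (r = 0.973), Oas1i (0.972), Oas1a (0.969) and Oas1k (0.962), all known to be induced by type I interferon, and the ubiquitin-conjugating enzyme gene Ube2l6 (0.958), which serves Isg15. Oas1a, Oas1i and Oas1k are related copies whose probes could share targets. Psmb9 was followed by Cxcl9 (0.936) and by MHC class I genes of the RT1 region, among them RT1-A2 (0.924); these also resemble each other in sequence. Ifit1 stood outside the antiviral block, with r = 0.142 to Mx1, as did Irf1 (0.115) and Irf8 (0.0118), which followed Psmb9 at 0.747 and 0.744. These correlations are descriptions over 24 arrays that share tissue, slides and scaling.

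With group held fixed, Isg15 was lower in females than in males, and the other antiviral effectors had lower fitted levels in females without being called. Isg15 was the 1 of 32 genes called, where 0.209% of all genes were. It ran from -0.50 to 1.74 with a median of 0.25 in the 12 females and from 0.50 to 3.24 with a median of 1.94 in the 12 males, a difference of -1.51 ± 0.31 (limma adjusted p = 0.0471). The ranges overlapped, and the female mean was lower in 6 of 6 groups. At an unadjusted p under 0.05, 15 of the 32 genes were lower in females, where 6.46% of all genes were, and 1 was higher, Ifng, where 6.02% of all genes were. The 15 held 11 of the 14 antiviral effectors, Irf7, Irf9, Stat2 and Cxcl10.

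The largest of these after Isg15 were Mx1 at -1.22 ± 0.33, Irf7 at -1.22 ± 0.30 and Oas1a at -1.16 ± 0.30 (limma adjusted p = 0.129, 0.0919 and 0.11), each with a lower female mean in 6 of 6 groups. Ifitm3 lay at -0.50 ± 0.12 (0.0919). All 5 antigen presentation genes stayed within 0.19 of 0, from -0.09 for B2m to 0.19 for Tap2. Ifng lay 0.77 ± 0.22 higher in females (limma adjusted p = 0.155), in 6 of 6 groups, on a probe that was dim on many arrays. The median difference of the 32 genes was -0.34, against -0.0015 for all genes.

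Slide position moved with sex, since position 1 was a male in every group. Without the 6 arrays at position 1, 5 of the 32 genes were lower in females at an unadjusted p under 0.05, and Isg15 lay at -1.23 (limma adjusted p = 0.378). The Isg15 call was also lost in 20 of the other 35 settings, 16 of them leaving out 1 array. Summed fibroblast markers ran from 46.6 to 84.1 in females and 68.7 to 119 in males, and red cell markers from 93.4 to 276 and 203 to 429; summed macrophage markers had medians of 64.3 and 66.3. Their part in the difference was not tested.

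The female minus male difference was also taken within each group, and no test called it different between groups. The median female minus male difference of the 32 genes was -0.03 in sham, 0.05 in IRI, -0.31 in Jiaji, -0.53 in Neiguan, -1.0 in Yanglingquan and -0.51 in Quchi, each from 2 females and 2 males, with Yanglingquan 1 among the males. For Mx1 it was -0.42 in sham and -2.95 in Yanglingquan. The difference in the acupoint groups minus that in sham and IRI was called for 0 of 32 genes, and for 0% of all genes, by limma. At an unadjusted p under 0.05, 2 of the 32 passed, Mx2 at -0.71 and Usp18 at -1.44 (adjusted p = 1 for both), where 3.98% of all genes did. The interaction of sex with injury, from sham and IRI, was likewise called for 0 of 32 genes and 0% of all genes, with 1 of the 32 (Bst2) at an unadjusted p under 0.05, where 4.90% of all genes passed.

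The wider interferon pathway was counted from a list of 120 further genes, of which 87 were tested. For IRI against sham, where 5.76% of all genes were called, 3 were higher and 1 lower: Ifna4, a type I interferon gene, at 0.66 ± 0.10, Oas3 at 1.14 ± 0.19, the feedback inhibitor gene Socs1 at 0.83 ± 0.14, and Calr, a chaperone of MHC class I loading, at -0.54 ± 0.13 (limma adjusted p = 0.000567, 0.00113, 0.00119 and 0.0169). Against IRI, 5 were higher and 0 lower in Jiaji, 3 and 0 in Neiguan, 2 and 3 in Yanglingquan and 0 and 0 in Quchi, with 6 at an unadjusted p under 0.05 in limma in Quchi (19.0% of all genes). Over all genes 10.2%, 5.62%, 12.1% and 3.44% were called in these comparisons. Ifna4 was 0.68 ± 0.10 higher in Jiaji and 0.64 ± 0.10 higher in Neiguan. Socs3, an inhibitor of cytokine signalling, was 0.76 ± 0.16 and 0.72 ± 0.16 higher there. Igtp, an immunity-related GTPase gene, was higher in Jiaji, Neiguan and Yanglingquan (0.41, 0.46 and 0.51, each ± 0.13). Oas2 was 0.58 ± 0.13 higher in Jiaji. In Yanglingquan Psme1, a proteasome activator gene, was 0.44 ± 0.11 higher and Socs1 and Oas1f were 0.71 ± 0.14 and 0.78 ± 0.25 lower. Calls of pathway genes, here and against sham, were not repeated under other scalings or with arrays left out. No acupoint array shared a scan day with IRI or sham, so scan day and acupuncture cannot be told apart in these differences.

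Against sham, 7 of the 87 pathway genes were higher and 2 lower in Jiaji, 8 and 2 in Neiguan, 5 and 3 in Yanglingquan and 5 and 5 in Quchi, where 24%, 19.9%, 13.0% and 21.1% of all genes were called. Ifna4 had the smallest p of the pathway genes in all 4, at differences of 1.34, 1.29, 0.83 and 0.60, each ± 0.10. It lay at -2.39 ± 0.06 in sham, -1.73 ± 0.18 in IRI, -1.05 ± 0.16 in Jiaji, -1.09 ± 0.06 in Neiguan, -1.56 ± 0.04 in Yanglingquan and -1.78 ± 0.12 in Quchi (SD, n = 4), and no sham array overlapped another group. Interferon alpha genes are closely similar copies, so signal on this probe may come from more than 1 of them. Igtp had a further probe, which was not used. Among the receptors and signalling genes 12 of 14 were tested, and 1 was called in IRI against sham. Of 38 further interferon-induced genes tested, 1 was called there. Between females and males 0 of the 87 were called (0.209% of all genes). At an unadjusted p under 0.05 in limma, 21 were lower in females (6.46% of all genes) and 4 higher (6.02%). Slide position moved with sex here too, and these counts were not repeated without position 1.

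Summed levels of T cell and of macrophage markers overlapped among all groups. Summed T and NK cell markers (14 of 14 tested) ran from 6.44 to 10.98 in sham, 5.51 to 17.3 in IRI, 7.63 to 15.0 in Jiaji, 7.99 to 12.1 in Neiguan, 6.07 to 12.4 in Yanglingquan and 4.85 to 10.8 in Quchi. Monocyte and macrophage markers (14 of 14) ran from 49.5 to 82.6 in sham, 41.7 to 91.0 in IRI and 67.0 to 98.5 in Neiguan. Neutrophil markers (9 of 11) ran from 15.2 to 16.7 in sham, 17.3 to 23.2 in Neiguan and 19.0 to 22.6 in Quchi, with no overlap of sham with either. In IRI, Jiaji and Yanglingquan the summed level overlapped sham. Against sham, 4 of the 9 were called higher in Quchi (21.1% of all genes, either direction), with a median difference of 0.90. Most of the 9 lay above sham in the other injured groups too. In Neiguan 5 were called higher (median 1.11, 19.9% of all genes), in Jiaji 4 (0.88, 24%) and in Yanglingquan 2 (0.72, 13.0%). In IRI 1 was called higher (5.76%), and 8 of the 9 lay above sham, as did 5680 of all 12894 genes. The part of these markers in the Quchi and Neiguan results was not tested. Only 3 of 7 B cell and 3 of 6 dendritic cell markers passed the filter.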

How the data were processed

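RNA of rat myocardium was extracted with TRIzol, labelled with Cy3 and hybridised to 24 one-colour Agilent arrays, per the labels' protocols. The deposited intensity values are spot signals from Feature Extraction 11.0.1.1, per the file headers, which subtracted background and a spatial trend within an array; version 10.7.3.1 stands in the submitters' processing notes. The deposited log2 values of the authors' own table have equal quartiles on every array and were used as an alternative. Flags for outliers and for signal well above background were used as deposited.

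Each array's processed signal was put on the log2 scale and its 75th percentile subtracted. Control spots (1377 per array) and 8733 outlier spots over all arrays were left out, and 0 spots were saturated. A probe passed if 1 or more groups had it well above background on every array, which 25149 of 30367 did. Of all probes, 18005 were named through RefSeq accessions, and the passing probe of highest mean signal stood for a gene. Group and sex were fitted with limma 3.58.1 in R 4.3.3 on all 24 arrays (17 residual degrees of freedom), with Benjamini-Hochberg adjustment over 12894 genes. The pipeline was tested on simulated data. The number of arrays limits the precision, and p-values cover the spread among these samples alone.

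Replicate numbers equal slide positions. Arrays of the same number in different groups did not deviate together (60 pairs, median r of 0.0723, from -0.386 to 0.371), so the numbers were not taken as pairs. Values on every array are given for members called in any comparison, for those of smallest p over the 6 groups up to 8, and for Cxcl10, Irf7, Isg15, Stat2, Irf1 and B2m; up to 4 called pathway genes are named per comparison. Psmb9, Mx1 and the other members described by value beyond these, and the 3 gene pairs described by correlation, were chosen after their values were seen. The members, the pathway and marker lists and the rules were chosen with earlier results of these data known. Alternatives covered scaling, background correction, the filter, the probe of a gene, the sex term, blocks and leaving out arrays; those without slide position 1, and without Yanglingquan 1 and IRI 4, and the 2 counts at an unadjusted p were added after seeing the data.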

Additional observations from a re-analysis of the deposited data

Results flagged for a closer look

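In 65 groups of 4 arrays, 1 array of a group lay far from the other 3 in 2 cases, and chance alone flags about 1 in 20 such groups. Ifngr1 in Neiguan 4 was 1.42, where the nearest of the other Neiguan arrays was 1.78 and the farthest 1.83, so the gap was 0.889 of the range. Ifng in IRI 4 was -6.64, where the nearest of the other IRI arrays was -5.23 and the farthest -5.14, a gap of 0.938 of the range. Ifng was well above background on 3 of the 4 IRI arrays.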

How the results depend on the processing

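Counts of called genes among the 32 were small, so single genes moved them, and the cause was not tested. For IRI against sham and for the interaction of sex and injury, 0 were called in every setting that could be fitted. Against IRI, Jiaji (1 called) fell to 0 under quantile normalization, median scaling, normexp with quantile, the authors' values, no filter and without Yanglingquan 1 and IRI 4 together, and to 0 when any 1 array was left out. Neiguan (1) fell to 0 under the same 3 scalings, the authors' values and without Yanglingquan 1 and IRI 4, and reached 3 with slide as a random block (0 to 1 with 1 array left out). Yanglingquan (1) fell to 0 under quantile normalization, normexp with quantile and the authors' values and reached 2 with slide as a block (1 to 1); without Yanglingquan 1 and IRI 4, B2m was lost (0.47, limma adjusted p = 0.0642) and Cxcl9 called in its place (-1.33, 0.0459). Quchi (0) reached 1 with slide as a block (0 to 1). The fitted correlation of arrays scanned together was -0.0997, and each slide lay within 1 group. A negative value narrows the standard errors of group differences. The calls added with slide as a block, here and against sham, are therefore not evidence that slide was accounted for.

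Against sham, Jiaji (0) reached 1 with slide as a block and 2 without slide position 1. Neiguan (1) reached 2 under normexp with quantile and 4 with slide as a block (0 to 1); B2m was lost under normexp with quantile, and under quantile normalization, median scaling and the authors' values, where Ifnar1 was called in its place (-0.47 to -0.46). Yanglingquan (1) fell to 0 under quantile normalization, normexp with quantile and the authors' values, and reached 3 with slide as a block, 2 without position 1 and 3 without Yanglingquan 1 and IRI 4 (0 to 1). Its B2m difference became -0.0295 under normexp with quantile. Quchi (2) fell to 1 under the stricter filter, which left out Ifit1 (1 to 2). The F test over the acupoints (2) gave 1 under quantile normalization, normexp with quantile, the stricter filter and no filter, 4 under median scaling, 0 with the authors' values and without position 1, and 5 with slide as a block and without Yanglingquan 1 and IRI 4 (0 to 3).

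Between females and males, Isg15 was no longer called (0) with no filter, the mean of probes, every probe tested or without position 1 (0 to 4 with 1 array left out). The 15 genes lower in females were 5 without position 1 (14 to 17), while the 6 higher in Neiguan were 3 under median scaling, 10 without position 1 and 1 without Yanglingquan 1 and IRI 4 (1 to 12).

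With the replicate block, which puts slide position in the fit, Jiaji against IRI gave 0, the F test over the acupoints 1 and females against males 0, with Isg15 at -1.02 (limma adjusted p = 0.463), and 3 genes were lower in females at an unadjusted p under 0.05; it changed no other count by over 1.5 times. The numbers are slide positions and are not known to pair animals. Ifng and, in Quchi, Ifit1 were close to background, which limits their differences.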
